A study of Mus musculus with 6 samples.

Results

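The 9 genes described here encode cell adhesion molecules of the immunoglobulin superfamily: L1cam, Chl1, Nrcam, Nfasc, Ncam1, Alcam, Mcam, Cadm1 and Cntn1. They were measured among the 55471 genes of a count table from a cultured mouse undifferentiated pleomorphic sarcoma (UPS) line, a mesenchymal soft-tissue tumour, whose cells are labelled as metastatic. RNA sequencing libraries came from 3 samples of wild-type control cells, whose titles carry the tag AAV2, and from 3 samples labelled as Setd1a knockout, whose titles carry another, numeric tag. The tag and the knockout cannot be told apart. The libraries labelled as knockout are called knockout libraries after their label. Both groups were grown under the same stated culture conditions, and the meaning of the tags, the edited stretch of Setd1a and whether the knockout cells were a clone or a pool are not stated in the sources used here. The set was drawn up because L1cam was higher and Alcam lower in the knockout libraries. The difference between knockout and control is therefore given for all 9 members as a description without a p-value, and nothing is supported by it. Calls of members named further on are a description too.

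These proteins sit in the plasma membrane and hold cells together, or guide them, by binding the same or another adhesion molecule on a neighbouring cell through immunoglobulin domains. L1cam, Chl1, Nrcam and Nfasc form the L1 family, whose cytoplasmic tails bind ankyrin and so connect to the spectrin skeleton. They are best known from axon growth and from the nodes of myelinated axons, and L1cam is also found on many tumours. Setd1a encodes a histone H3 lysine 4 methyltransferase of a COMPASS complex, which acts at active promoters, many of them rich in CpG dinucleotides.

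Library totals lay between 17749533 and 18272622 counts, and 13044 genes had enough counts to be tested. Setd1a itself was at 71.0, 75.3 and 73.5 CPM (counts per 1000000 counts of the library, with library sizes scaled by the TMM method) in control replicates 1 to 3 and at 53.2, 68.7 and 56.3 CPM in the knockout replicates. The 3 knockout values were below the 3 control values, but the transcript was still present (log2 change -0.30 ± 0.12 SE, edgeR adjusted p = 0.426, and -0.31 ± 0.09 with adjusted p = 0.0913 when libraries of the same replicate number were paired). Of its exonic bases, 52.3% are shared with an overlapping predicted gene on the same strand, which held 1 count in all libraries together. How reads in shared bases were counted is not stated, so the Setd1a values may not cover them. All 11 mesenchymal markers examined, such as Vim and Fn1, reached a mean of at least 1 CPM, and they summed to between 9350 and 9370 CPM in control and between 7660 and 9230 CPM in knockout libraries. Whether replicates came from separate cultures is not labelled, so the p-values reflect the spread among these 6 libraries, which may be technical. In bulk RNA, fewer cells expressing a gene and less RNA per cell cannot be told apart.

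Sequences upstream of the transcription start were compared because the members ranged from abundant to undetected. Level is not part of the stated reason for their choice, but L1cam and Alcam had to be detected to be seen to differ. RefSeq starts of GRCm38.p6 were found for 7 of the 9 members, and no entry matched Ncam1 or Cadm1. The 250 bases before each start were examined. The 3 windows printed here, of a member that was higher in the knockout libraries, of a more abundant member of its family and of a member without a single count, hold no annotated exon. CpG dinucleotides are in capitals and each window is written 5′ to 3′ on the strand of its gene.
L1cam, chrX:73880835-73881084, minus strand: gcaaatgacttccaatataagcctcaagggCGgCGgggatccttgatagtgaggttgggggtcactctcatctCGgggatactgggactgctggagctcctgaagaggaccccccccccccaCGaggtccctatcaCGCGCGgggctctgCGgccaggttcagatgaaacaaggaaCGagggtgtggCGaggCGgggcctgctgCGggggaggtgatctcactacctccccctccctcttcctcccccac
Nrcam, chr12:44328635-44328884, plus strand: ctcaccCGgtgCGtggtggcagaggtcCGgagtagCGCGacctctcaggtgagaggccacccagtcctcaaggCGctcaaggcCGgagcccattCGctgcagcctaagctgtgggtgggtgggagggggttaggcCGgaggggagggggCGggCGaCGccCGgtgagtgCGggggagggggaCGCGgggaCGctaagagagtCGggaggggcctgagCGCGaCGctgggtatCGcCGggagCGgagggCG
Cntn1, chr15:92050915-92051164, plus strand: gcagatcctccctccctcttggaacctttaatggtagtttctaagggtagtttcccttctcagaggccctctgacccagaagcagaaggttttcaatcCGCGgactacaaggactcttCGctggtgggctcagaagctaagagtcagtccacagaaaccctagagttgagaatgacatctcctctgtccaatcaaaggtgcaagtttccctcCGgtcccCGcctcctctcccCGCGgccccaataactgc

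The L1cam window held 12 CpG, the Nrcam window 25 and the Cntn1 window 7. Another RefSeq start of L1cam lay slightly further downstream, and its window overlapped the printed one. That window held 20 CpG, and 44 of its bases are exonic in GENCODE. Both L1cam windows lie inside the annotated gene, downstream of its most upstream start. Alcam had 22 and Mcam 25, in windows that lie in exons annotated upstream of the RefSeq start and are not printed. Among members with few or no counts, Chl1 had 8 CpG, the starts of Nfasc 4 and 1, and the other starts of Cntn1 3 each. All of these windows lie inside the annotated genes, downstream of their most upstream starts. The Chl1 window is exonic throughout, and 80 bases of the Nfasc window with 4 CpG are exonic. The 4 members with a matched start that passed the low-count filter thus had at least 12 CpG in each window and the 3 that did not had at most 8. L1cam and Alcam are among the 4, so this split is a description only. Across protein-coding genes with a matched start, tested genes also had more CpG, but the distributions overlapped: the median was 16 CpG (quartiles 10 and 23) for the 9284 tested genes and 3 CpG (quartiles 1 and 7) for the 7229 that were not tested. A GC box (GGGCGG on either strand) was present in the windows of L1cam, Nrcam, Alcam, Mcam and 1 start of Nfasc, against 32.7% of all 32851 windows of that length. A TATA box (TATAAA on either strand) was found in 1 window of Cntn1 and in no other window of a member, against 12.4% of all windows. A CCAAT box (CCAAT on either strand) was present in the printed windows of L1cam and Cntn1, in 1 other window of Cntn1, in that of Alcam and in 1 window of Nfasc, against 33.8% of all windows.

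Levels of the members were compared in the control libraries as CPM per kilobase of exon, since longer transcripts give more reads. Alcam, which binds itself and CD6 on lymphocytes, was the most abundant at 11.9 ± 3.49 CPM per kb (SD, n = 3). Ncam1, the neural cell adhesion molecule, followed at 2.90 ± 0.725 CPM per kb and Nrcam at 1.71 ± 0.219 CPM per kb. Mcam, also known as CD146 and common on endothelium and melanoma cells, was at 0.493 ± 0.0517 CPM per kb and L1cam at 0.290 ± 0.129 CPM per kb. Cadm1, a synaptic and epithelial adhesion molecule, was at 0.0428 ± 0.0284 CPM per kb and Chl1, the close homologue of L1, at 0.00302 ± 0.00262 CPM per kb. No adjacent genes in this order overlapped between their control libraries, although Mcam and L1cam came close, with a lowest Mcam value of 0.435 and a highest L1cam value of 0.429 CPM per kb. In the knockout libraries L1cam, at 1.08 ± 0.284 CPM per kb, overlapped with Mcam at 0.879 ± 0.20 CPM per kb, and Nrcam at 2.45 ± 0.369 overlapped with Ncam1 at 2.83 ± 0.841 CPM per kb.

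**Figure D1:**
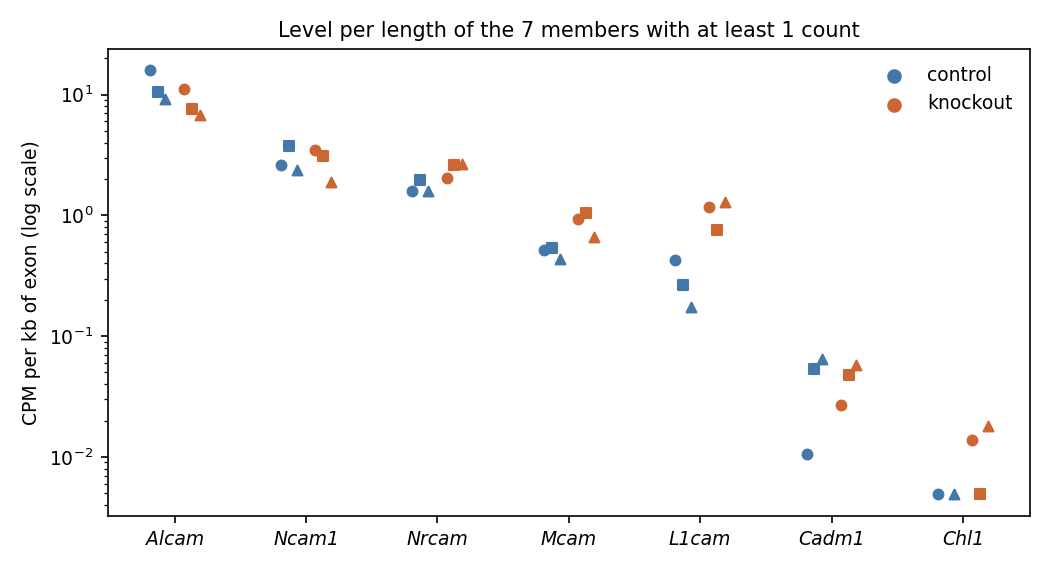
Level of the 7 members with at least 1 count, as CPM per kilobase of exon on a log axis, in each control (blue) and knockout (orange) library, with circles, squares and triangles for replicates 1, 2 and 3. Libraries with 0 counts are not drawn. Alcam was the highest and Chl1 the lowest, and L1cam lay below Mcam in all 3 control libraries and in knockout replicate 2.

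Nfasc, which encodes neurofascin of the nodes of Ranvier and axon initial segment, and Cntn1, which encodes the lipid-anchored contactin-1 of the axon surface, were at 0 counts in all 6 libraries. A count of 0 allows up to 3 counts, or 0.168 CPM, in a library, a limit that covers counting error only. Chl1 had 1, 0 and 1 counts in the controls and 3, 1 and 4 in the knockouts, near that limit, so no fold is given. Cadm1 had 2, 10 and 12 counts in the controls and 5, 9 and 11 in the knockouts, and the groups overlapped. These 4 members did not pass the filter on low counts. The other 5 did, L1cam at its lowest with 23 counts in control replicate 3.

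L1cam (ENSMUSG00000031391, chromosome X, 73853778 to 73896105, minus strand, GRCm38) was low in the controls and higher in each knockout library. The controls held 57, 35 and 23 counts, or 3.15, 1.95 and 1.29 CPM, and the knockouts 157, 100 and 173 counts, or 8.65, 5.55 and 9.51 CPM. The groups did not overlap, and the highest control value lay below the lowest knockout value. The share of all tested genes without overlap was not computed, so a lack of overlap, here and below, is a description only. Means were 2.13 ± 0.945 CPM in control libraries and 7.90 ± 2.08 CPM in knockout libraries (SD, n = 3), a log2 difference of 1.89 ± 0.32 (SE) without pairing and 1.90 ± 0.26 with it. Between libraries of the same number the ratio of knockout to control was 2.74, 2.84 and 7.38. The third ratio stood apart, and it combined the lowest control and the highest knockout library. Without pair 3 the paired log2 difference was 1.47. Of the exonic bases of L1cam, 1.4% are shared with Arhgap4, which held 119 counts in all libraries together.

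Nrcam (chromosome 12, 44328885 to 44601964), another L1-family gene, whose protein gathers at nodes of Ranvier, was also higher in the knockout libraries, by a smaller factor. It was at 21.1, 26.2 and 21.3 CPM in control libraries and 27.0, 35.2 and 35.9 CPM in knockout libraries. The groups did not overlap, although knockout replicate 1 lay close to control replicate 2. The log2 difference was 0.52 ± 0.15 (SE) without pairing and 0.51 ± 0.11 with it, and the ratios within pairs were 1.28, 1.34 and 1.69. For L1cam and Nrcam alike the ratio was highest in pair 3.

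Mcam (chromosome 9, 44134469 to 44142727) was at 1.72, 1.79 and 1.46 CPM in control libraries and 3.14, 3.50 and 2.20 CPM in knockout libraries, again without overlap. The log2 difference was 0.83 ± 0.26 (SE) without pairing and 0.82 ± 0.21 with it. It rested on 26 to 32 counts per control library and 40 to 63 per knockout library. The ratios within pairs were 1.83, 1.96 and 1.51, so here pair 3 had the lowest ratio. The 11 endothelial markers, a cell type in which Mcam is common, summed to between 7.52 and 8.88 CPM in control libraries and between 7.94 and 8.15 CPM in knockout libraries, 2 of them reached 1 CPM, and Cldn5 and Erg had no count. Single genes of the list went in different directions. Egfl7, the largest part of the sum, was at 5.92, 5.86 and 4.76 CPM in the controls against 3.14, 4.72 and 4.23 CPM in the knockouts. Cdh5, which encodes VE-cadherin, was at 0.83, 1.73 and 1.63 CPM against 2.31, 1.83 and 1.81 CPM. Kdr, which encodes a VEGF receptor, was at 0, 0.17 and 0.39 CPM against 0.61, 0.50 and 0.49 CPM. None of the 3 overlapped between groups: Egfl7 was lower in the knockouts, and Cdh5 and Kdr were higher, as Mcam was. All other markers of this list overlapped between groups or had no count. The share of all genes without overlap was not computed. Egfl7 and Cdh5 did not pass the paired test (edgeR adjusted p = 0.208 and 0.382), and Kdr had too few counts to be tested. The part of these markers in the Mcam difference was not tested.

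Alcam (chromosome 16, 52248996 to 52454074, minus strand) was lower in the knockout library of every pair, while the groups overlapped. It was at 113, 75.2 and 66.1 CPM in control libraries and 78.8, 54.2 and 48.2 CPM in knockout libraries. Knockout replicate 1 lay above control replicates 2 and 3. The ratios within pairs were 0.697, 0.721 and 0.728, the narrowest range of ratios among the 5 tested members. The log2 difference was nearly the same without pairing, -0.49 ± 0.22 (SE), and with it, -0.48 ± 0.08, and its error was smaller with pairing. In each group replicate 1 was the highest and replicate 3 the lowest. Without control replicate 1 the unpaired log2 difference was -0.23, and without knockout replicate 1 it was -0.72.

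Ncam1 (chromosome 9, 49502136 to 49798925, minus strand) was at 22.5, 32.3 and 20.6 CPM in control libraries and 30.2, 27.1 and 16.3 CPM in knockout libraries. The groups overlapped widely. The log2 difference was -0.03 ± 0.23 (SE) without pairing and -0.05 ± 0.15 with it, and the ratios within pairs, 1.35, 0.839 and 0.794, went in different directions. Of its exonic bases, 4.8% are shared with a gene on the opposite strand that held 2 counts in all.

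**Figure D2:**
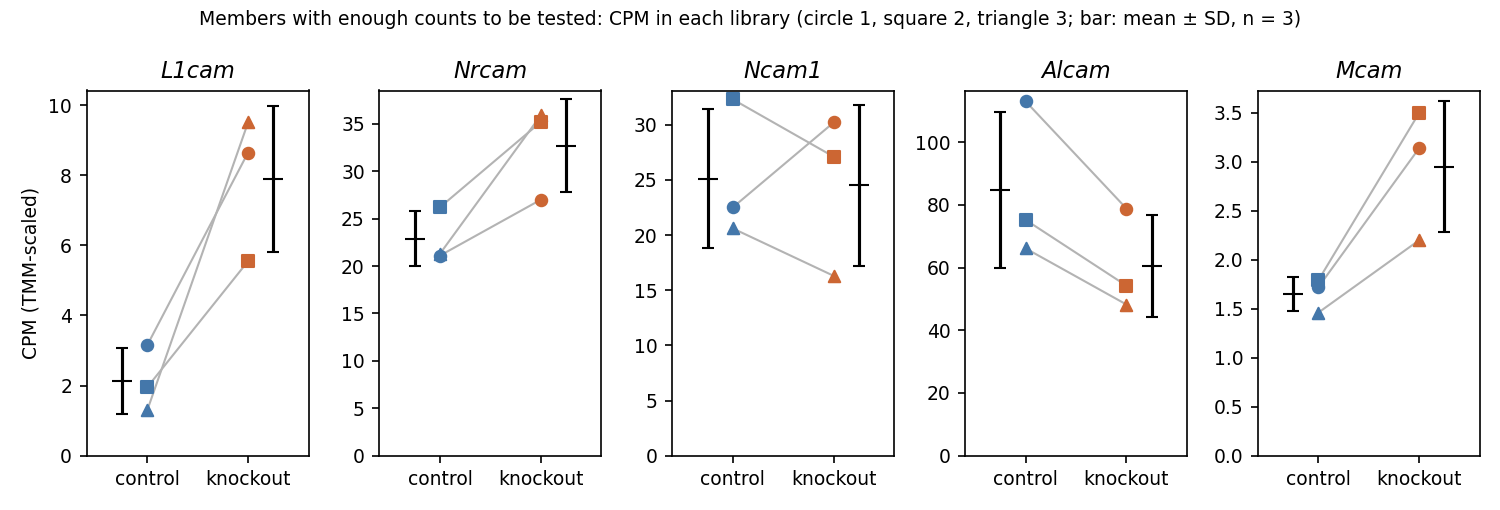
CPM of the 5 tested members in each library, control in blue and knockout in orange, with grey lines joining libraries of the same replicate number and black bars for the mean ± SD (n = 3). L1cam, Nrcam and Mcam do not overlap between groups, Alcam is lower in each pair with overlapping groups, and the Ncam1 lines cross. The share of all tested genes without overlap was not computed.

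**Figure D3:**
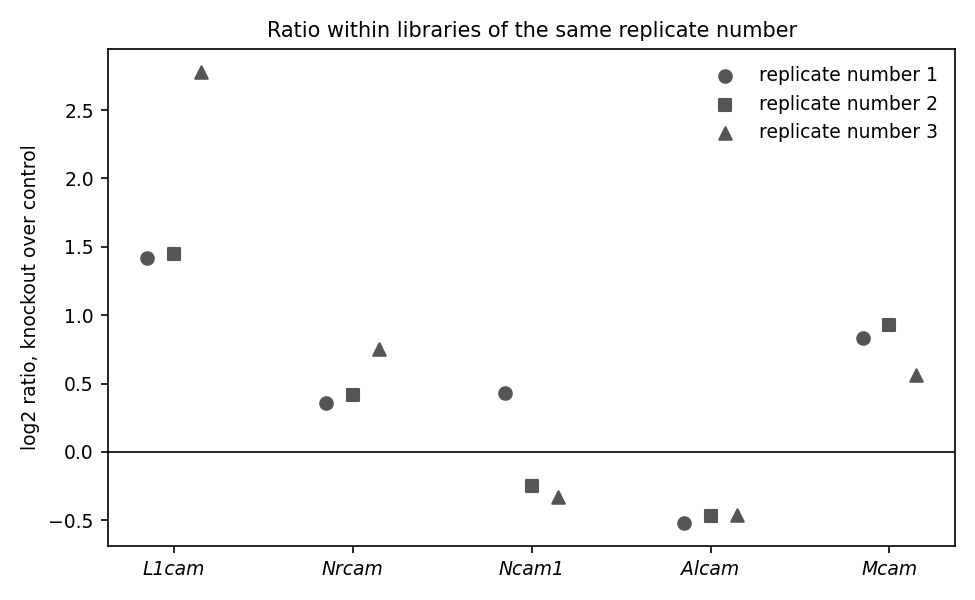
Log2 ratio of knockout to control for libraries of the same replicate number, from logged CPM with a prior count of 2, in the 5 tested members. Alcam lies between -0.52 and -0.46, L1cam between 1.42 and 2.78, and Ncam1 on either side of 0.

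In the edgeR quasi-likelihood test over all genes without pairing, 0 genes were called higher (0%) and 0 lower (0%) at an adjusted p under 0.05, so no member was called. Also without pairing, DESeq2 and edgeR without the filter on low counts each called 1 member, L1cam. Among all genes, DESeq2 called 83 higher and 39 lower of 13044 genes entered, and edgeR without the filter 62 and 12 of 25222. DESeq2 was run with its default filtering, which can leave genes without an adjusted p, so fewer than 13044 may have been adjusted. Before adjustment, 718 genes were higher and 588 lower with p under 0.05 in the filtered edgeR test without pairing. With the replicate number as a block, which is called the paired test here, 187 genes were called higher (1.43% of those tested) and 111 lower (0.851%). Leaving out pair 3 left 0 genes higher and 0 lower, so every call made with pairing, of members, related genes, neighbours and markers alike, is lost without that pair. The calls included 2 members as higher, L1cam and Nrcam, and 1 as lower, Alcam. Since the members were picked from this contrast, these counts are given as a description only.

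The spread among replicates differed between members. In the controls the coefficient of variation was 44.4% for L1cam, 29.2% for Alcam, 25% for Ncam1, 12.8% for Nrcam and 10.5% for Mcam. In the knockouts it was 26.3%, 26.8%, 29.8%, 15.1% and 22.7% in the same order. L1cam and Mcam have similar low counts in the controls, yet the L1cam values spread over a wider range.

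Genes with a profile like that of L1cam or Alcam were found by Pearson correlation of log2 CPM over the 6 libraries among 9624 genes with a mean of at least 5 CPM. Group means were not removed, so the likeness includes the difference between knockout and control for which L1cam and Alcam were picked. For L1cam the closest were Setdb2 (r = 0.986), Dgke (0.983), Rsbn1l (0.981), Nsd3 (0.977) and Cfap69 (0.973). Their differences were far smaller than that of L1cam: Nsd3 was at 75.7, 73.3 and 71.1 CPM in control libraries and 84.1, 82.8 and 83.0 CPM in knockout libraries. For Alcam the closest were Hmga2 (0.990), Cdk14, Clmp and Ddx1 (0.986 each) and Nectin3 (0.983). Clmp and Nectin3 also encode adhesion molecules of the immunoglobulin superfamily. Clmp was at 89.2, 66.6 and 62.2 CPM in control libraries and 68.9, 47.8 and 48.2 CPM in knockout libraries, the same order of libraries 1 to 3 within the controls as for Alcam. With 6 libraries such values are easily reached: 66 genes correlated with L1cam and 102 with Alcam at r above 0.9.

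Genes related to these molecules by function were then examined in 5 lists with 176 genes, of which 133 were tested. In the paired test 3 of the 133 (2.26%) rose and 0 fell, against 1.43% and 0.851% of all genes tested. Without pairing 0 rose and 0 fell, and DESeq2 and limma-voom also called 0. In the edgeR test without pairing 6 of 133 had an unadjusted p under 0.05, against 718 higher and 588 lower of all 13044 genes tested. The genes that rose in the paired test were F11r, Timp3 and Tgfb1.

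Among 50 other immunoglobulin-type adhesion genes, 25 were tested. With pairing 1 rose and 0 fell, and the median log2 change was 0.00, the same as over all genes tested. The gene that rose was F11r, which encodes the tight junction molecule JAM-A. It was at 5.75, 7.26 and 8.80 CPM in control libraries and 9.80, 9.44 and 14.2 CPM in knockout libraries, without overlap. The log2 change was 0.61 ± 0.13 (SE, paired edgeR adjusted p = 0.0487, 0.380 without pairing), and the call was lost without pair 2 (edgeR adjusted p = 0.0570) or pair 3 (0.134). Without pairing 4 of the 25 had an unadjusted p under 0.05, F11r, Cadm4, Cntnap1 and Emb, all higher in the knockouts. Of all 13044 genes tested, 718 were higher and 588 lower at that level, and of the 5 lists together 6 of 133 reached it. Cadm4, Cntnap1 and Emb were picked out after their values were seen. They missed the threshold in the paired edgeR test, with an adjusted p of 0.0681 for Emb, 0.0700 for Cntnap1 and 0.0747 for Cadm4. Cadm4, a relative of Cadm1, was at 1.65 ± 0.426 CPM in control libraries and 3.27 ± 1.03 CPM in knockout libraries (SD, n = 3). Cntnap1, which encodes a contactin-associated protein of the paranode, was at 2.53 ± 0.416 and 4.09 ± 0.69 CPM, and Emb, which encodes embigin, at 28.1 ± 6.04 and 36.5 ± 5.36 CPM. The most abundant genes of the list per length were Bsg, which encodes basigin, Thy1, Nptn and Kirrel. Bsg was at 593 ± 15.6 CPM in control libraries and 579 ± 48.9 CPM in knockout libraries (SD, n = 3), Nptn, which encodes neuroplastin, at 200.0 ± 1.94 and 206 ± 7.06 CPM, and Kirrel, of the nephrin-like family, at 245 ± 19.4 and 216 ± 27.9 CPM. Thy1, a lipid-anchored surface glycoprotein, varied most, with 283, 147 and 183 CPM in control libraries and 126, 134 and 195 CPM in knockout libraries. None of these 4 passed the test. The contactins of this list, Cntn2 to Cntn6, did not pass the low-count filter, and neither did Ncam2.

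Among 39 ligands and co-receptors, 30 were tested, 0 rose and 0 fell, and the median log2 change was 0.05. Without pairing 1 of them had an unadjusted p under 0.05, and the smallest adjusted p in the paired edgeR test was 0.101, that of Lgals1. Lgals1, which encodes galectin-1, a lectin that binds glycans on surface proteins, was at 3130 ± 445 CPM in control libraries and 2570 ± 239 CPM in knockout libraries (SD, n = 3). Lgals3, which encodes galectin-3, was at 499 CPM in control and 507 CPM in knockout libraries (log2 change 0.02 ± 0.08 SE, paired edgeR adjusted p = 0.918). Itgb1 and Itga5, subunits of the fibronectin receptor, an RGD-binding integrin of the kind that L1cam engages, were at 870.0 ± 67.5 and 280.0 ± 21.9 CPM in control libraries and 884 ± 7.48 and 278 ± 9.01 CPM in knockout libraries.

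Among 38 cytoplasmic partners, 36 were tested, 0 rose and 0 fell, and the median log2 change was 0.00. None had an unadjusted p under 0.05 without pairing. The most abundant per length were Msn and Ezr, which encode moesin and ezrin and link membrane proteins to actin, Csnk2b, a casein kinase 2 subunit, and Ap2m1, the clathrin adaptor subunit that takes L1cam into endocytic vesicles. Ezr was at 272 ± 17.4 CPM in control libraries and 255 ± 16.9 CPM in knockout libraries, Msn at 861 ± 160.0 and 930.0 ± 142 CPM, and Ap2m1 at 268 ± 18.7 and 253 ± 4.87 CPM (SD, n = 3). The ankyrins were named for their role and after their values were seen. Ank3 had a log2 change of -0.22 ± 0.08 (SE, paired edgeR adjusted p = 0.187) and Ank2 of 0.01 ± 0.10 (0.960).

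Among 24 genes for proteolytic cleavage, which sheds these molecules from the surface and then cuts the remaining stub in the membrane, 21 were tested, 1 rose and 0 fell, and the median log2 change was -0.02. Without pairing 0 of them had an unadjusted p under 0.05. The gene that rose was Timp3, an inhibitor of metalloproteinases including the sheddase ADAM17. It was at 36.2, 44.3 and 22.5 CPM in control libraries and 57.8, 54.7 and 31.6 CPM in knockout libraries, so the groups overlapped while every pair was higher in the knockout. The log2 change was 0.49 ± 0.10 (SE, paired edgeR adjusted p = 0.0422, 0.592 without pairing), and without pair 3 the adjusted p was 0.0888. Of the exonic bases of Timp3, 21.3% are shared with Syn3 on the opposite strand, which held 11 counts in all. The sheddase gene Adam10 was at 132 ± 3.6 CPM in control libraries and 128 ± 8.87 CPM in knockout libraries and Adam9 at 139 ± 12.8 and 139 ± 3.68 CPM (SD, n = 3). Ncstn, a subunit of gamma-secretase, was at 148 ± 8.08 and 146 ± 1.53 CPM and Timp1 at 387 ± 31.1 and 345 ± 10.8 CPM.

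Among 25 regulators and processing factors, 21 were tested, 1 rose and 0 fell, and the median log2 change was -0.04. Without pairing 1 of them had an unadjusted p under 0.05. Tgfb1, which encodes the growth factor TGF-beta 1, was at 21.4, 18 and 27.9 CPM in control libraries and 28.9, 34.6 and 40.2 CPM in knockout libraries, without overlap. The log2 change was 0.63 ± 0.12 (SE, paired edgeR adjusted p = 0.0338, 0.308 without pairing), and the call was lost without pair 2 (edgeR adjusted p = 0.156) or pair 3 (0.0747). Of the most abundant, the splicing repressor gene Ptbp1 had a log2 change of -0.11 ± 0.08 (SE, paired edgeR adjusted p = 0.531). Ctnnb1, which encodes beta-catenin, was at 477 ± 30.4 and 497 ± 43.4 CPM in control and knockout libraries, Twist1 at 92.9 ± 5.61 and 82.3 ± 5.03 CPM, and Rela at 119 ± 10.2 and 126 ± 13.2 CPM (SD, n = 3). Rest, the repressor of neuronal genes, was named after its values were seen and had a log2 change of 0.14 ± 0.13 (SE, paired edgeR adjusted p = 0.626).

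**Figure D4:**
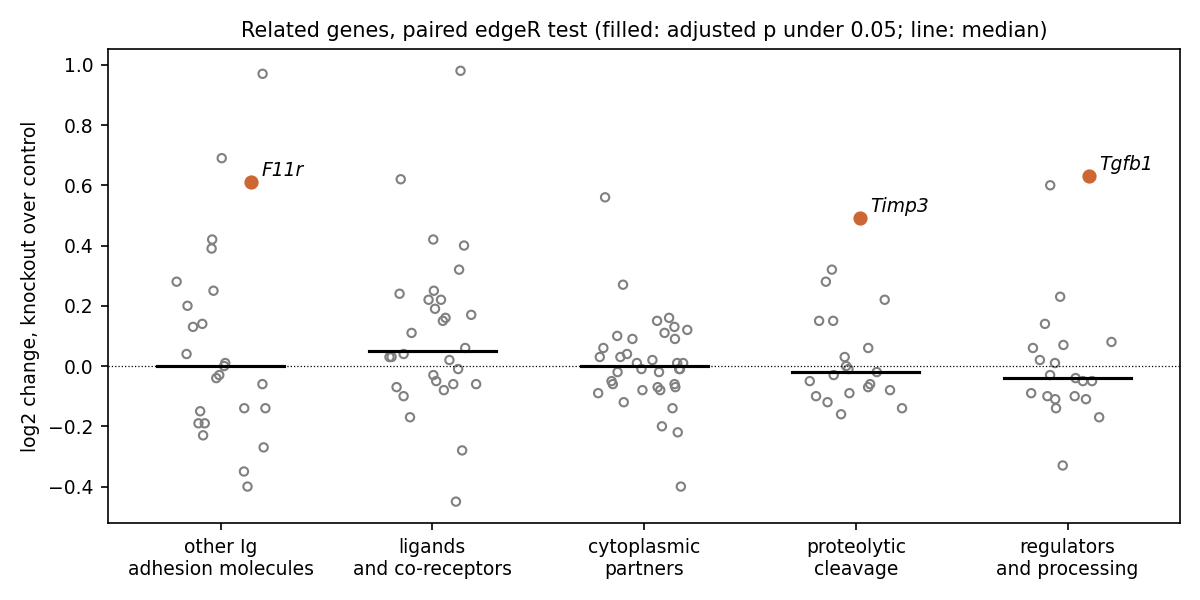
Log2 change of the 133 tested genes of the 5 related lists in the paired edgeR test, 1 circle per gene, filled where the adjusted p was under 0.05, with a line at the median of each list. F11r, Timp3 and Tgfb1 are the filled circles, and the medians lie between -0.04 and 0.05.

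Neighbours of L1cam on the X chromosome were compared with it to see whether its surroundings differed too. Of 19 annotated genes with a start within 200 kb of the most upstream L1cam start, 10 were tested. With pairing 1 of them rose and 0 fell, and 0 were called without it. Their log2 changes lay between -0.43 and 0.59, with a median of -0.12, against 1.90 for L1cam. Renbp, which encodes the renin-binding protein and lies 34.7 kb away, was at 7.14, 8.71 and 6.44 CPM in control libraries and 10.3, 14.8 and 8.91 CPM in knockout libraries (log2 change 0.59 ± 0.13 SE, paired edgeR adjusted p = 0.0485, 0.383 without pairing). Arhgap4, which shares exonic bases with L1cam, had a log2 change of -0.43 ± 0.27 (SE, paired edgeR adjusted p = 0.445), opposite in sign to L1cam. Naa10, an acetyltransferase gene, had -0.28 ± 0.09 (0.137) and Hcfc1, whose product is part of COMPASS complexes, -0.21 ± 0.09 (0.258). The vasopressin receptor gene Avpr2, 4.0 kb away, had no count. Around Alcam 1 other gene had its start within 200 kb, and it was not tested.

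**Figure D5:**
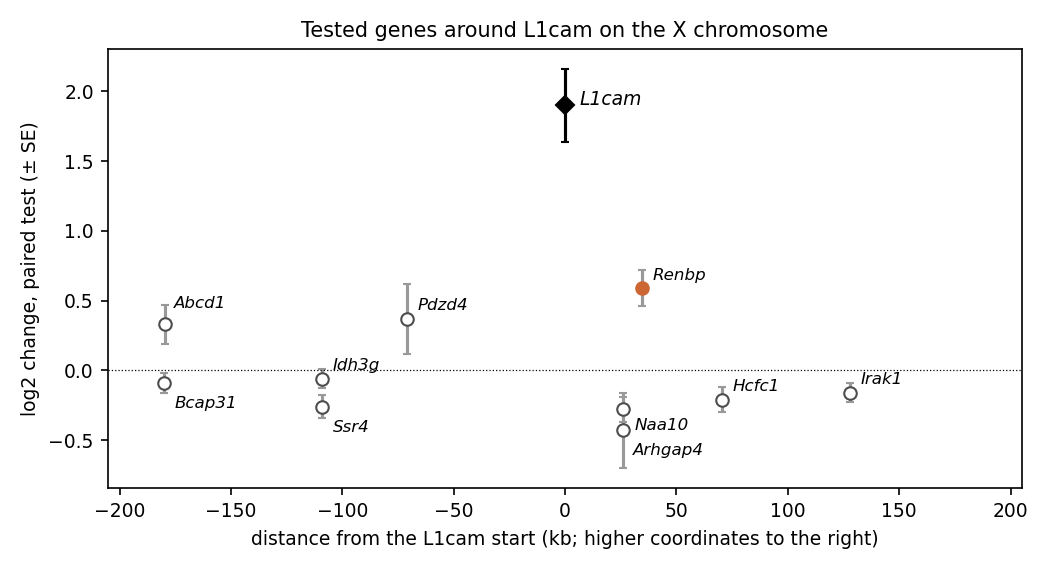
Log2 change in the paired edgeR test (± SE) of the 10 tested genes within 200 kb of the L1cam start, against distance in kb, with L1cam as a black diamond and the 1 gene with an adjusted p under 0.05 filled. L1cam lies at 1.90 and the neighbours between -0.43 and 0.59.

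Since L1cam, Nrcam and Ncam1 are typical of neurons, 14 neuronal markers were summed. They came to between 148 and 219 CPM in control libraries and between 137 and 208 CPM in knockout libraries, and 7 of the 14 reached a mean of 1 CPM. Most of the sum was Nefl, a neurofilament gene, at 155, 94.4 and 124 CPM in control libraries and 129, 73.0 and 90.6 CPM in knockout libraries, which fell in the paired test (log2 change -0.36 ± 0.07 SE, edgeR adjusted p = 0.0422, 0.671 without pairing). Of its exonic bases, 32.8% are shared with Nefm. Gap43, a growth cone protein gene, rose from 16.7, 17.8 and 18.6 CPM to 25.1, 26.4 and 34.2 CPM (log2 change 0.68 ± 0.11 SE, edgeR adjusted p = 0.0237, 0.180 without pairing). The other markers that reached 1 CPM went in different directions and did not pass the paired edgeR test. Map2 (log2 change 0.65 ± 0.21 SE, adjusted p = 0.135) and Nefm (0.36 ± 0.14, 0.208) were higher in the knockouts. Stmn2 was lower (-0.50 ± 0.19, 0.186). Tubb3 (0.06 ± 0.13, 0.852) and Elavl4 (-0.03 ± 0.29, 0.967) differed little. Rbfox3, which encodes the nuclear marker NeuN, had 0 counts in each control and 0, 0 and 2 in the knockouts. Elavl3, which encodes a neuronal RNA-binding protein, had 0 counts in each control and 0, 6 and 1 in the knockouts. Syp, which encodes synaptophysin, was at 0.353 ± 0.0863 CPM in control libraries and 0.257 ± 0.127 CPM in knockout libraries (SD, n = 3). The 11 Schwann cell and glial markers summed to between 13.6 and 16.8 CPM in control libraries and between 14.3 and 17.0 CPM in knockout libraries, with 3 at 1 CPM or more and Foxd3 and Olig2 at 0. The 11 leukocyte markers summed to between 20.4 and 22.6 CPM and between 20.0 and 28.8 CPM, with 2 at 1 CPM or more and Adgre1, Tyrobp, C1qa, C1qb and Cd3e at 0. The part of these markers in the differences of the members was not tested.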

How the data were processed

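The members and gene lists were chosen with earlier results of these data known. Total RNA of cultured cells was sequenced in 6 libraries. The authors deposited 1 table of unnormalized read counts by Ensembl gene identifier. The submitters' processing notes name STAR, featureCounts, DESeq and mm10, without versions or roles. The strand setting is not given in the sources used here, so reads of overlapping genes cannot be told apart. Columns were matched to samples by title.

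Symbols, positions and exon lengths came from GENCODE M21 (GRCm38), which matched 55230 of 55471 identifiers; the rest held at most 0.0014% of a library's counts. Promoter windows came from RefSeq (GRCm38.p6). edgeR 4.0.16 (R 4.3.3) was run with TMM factors and its default filter on low counts by group. Its quasi-likelihood test was two-sided, p-values of 13044 genes were adjusted by the Benjamini-Hochberg method, and the threshold was 0.05. The steps were run on counts simulated with the spread of the paired fit and no replicate effect, so that check does not cover such an effect. No libraries of a group agreed within sampling noise (chi-square per degree of freedom 21.6 to 40.0).

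The test without pairing was the planned one, and a block for the replicate number (paired test) its alternative. Deviations from the group means correlated at 0.15, 0.46 and 0.38 for same-numbered libraries, all above the 0.1 set for pairing, and between -0.45 and 0.05 for others. The pairing thus comes from the data and not from the labels. Deviations within a group sum to 0, so positive values for same-numbered libraries push those for others down. The contrast between them is therefore partly built in. Named related genes were those called in either test (at most 6 per list) and the 4 with the highest level per length. Alternatives were RLE scaling, DESeq2 1.42.0, limma-voom (limma 3.58.1), other filters, and leaving out libraries or pairs.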

Additional observations from a re-analysis of the deposited data

How the results depend on the processing

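With the replicate block (paired), 187 genes were higher, 111 lower, and 3 related genes higher; without pairing each count was 0. DESeq2 called 83 higher and 39 lower, and edgeR without a filter on low counts 62 and 12. Leaving out 1 library, or with the block 1 pair, gave 0 to 507 genes higher, 0 to 207 lower, 0 to 8 related genes higher and 0 to 1 lower: without knockout replicate 1 the unpaired test called 30 higher and 1 lower, and the paired test called 507 and 207 without pair 1, 140 and 54 without pair 2, and 0 and 0 without pair 3. The cause was not tested.

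The log2 difference kept its sign under all alternatives run for L1cam (1.47 to 2.28), Nrcam (0.38 to 0.64), Mcam (0.70 to 1.0) and Alcam (-0.72 to -0.23), while Ncam1 (-0.29 to 0.20) changed sign in 4 of 15. With a mean of at least 5 CPM, Mcam was not fitted. With pairing, the members called were L1cam, Nrcam and Alcam with all pairs and without pair 1, L1cam alone without pair 2, and none without pair 3. Without pairing, L1cam was called by DESeq2 and by edgeR with no filter on low counts, and no member was called under the other unpaired alternatives run. Since the members were picked from this contrast, these calls are a description and lend it no support. Setd1a stayed below 0 and short of the threshold in each alternative run. About 23 to 57 counts per control library limit the precision of L1cam and Mcam.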
